A study of Mus musculus with 6 samples.

Results

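Cluster 7 of the naïve pericyte lineage-tracing table was a group of 271 tdTomato+ cortical cells that the study's own clustering set apart, and its leading transcript was Spp1. Its members were taken as every cell with cluster number 7 in the deposited naïve cell table, whatever the mouse line. All cluster numbers are those of the deposited tables. The study's text describes fewer naïve clusters than the 14 deposited, so none of its clusters is matched to cluster 7 here. That text lists Spp1 among the genes of a naïve canonical pericyte cluster and of the vascular-genic pericytes of the Tbx18 line. These 271 cells were drawn from 4992 naïve cells in 14 clusters, and from 17033 cells in the 6 libraries of the series. In the NG2 line 244 cells carried the number, 5.67% (exact binomial 95% interval 4.99 to 6.40) of 4306 cells. In the Tbx18 line 27 cells carried it, 3.94% (2.61 to 5.68) of 686 cells. Clusters 0, 1 and 2 of the same table, the pericyte clusters it was compared with, held 967, 639 and 586 cells in the NG2 line and 66, 36 and 63 cells in the Tbx18 line.

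The study asked what pericytes marked by either of these lineage drivers become after cortical injury, and sequenced single cells from the cerebral cortex of mice 3-4 months old. Both lines carried the Ai14-flx reporter, which makes tdTomato once Cre has acted. The NG2-Cre-ERT2/Ai14-flx line drove a tamoxifen-dependent Cre from the Cspg4 (NG2) promoter, which is also active in smooth muscle and in oligodendrocyte precursors, and the Tbx18-CreERT2/Ai14-flx line drove it from the Tbx18 locus. Every mouse, naïve animals included, received tamoxifen, and tdT+/DAPI- live cells were sorted. Naïve mice had no injury. Mice with a physical injury received saline into the cortex, those with an ischemic injury received ET-1/L-NAME, and both were collected 3 days later, with tamoxifen given 7 days before the injury. Each library pooled tissue from several animals and there was 1 library per line and condition. No spread between animals could therefore be measured, and every interval below covers counting error only. The clusters had been formed from the same transcripts, so differences between cluster 7 and its neighbours are given as descriptions with no test.

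Pericytes are mural cells that sit within the basement membrane of capillaries and carry PDGF receptor β. In the brain they express the KATP channel pair Kcnj8 and Abcc9, the adhesive glycoprotein vitronectin (Vtn) and the P-type ATPase Atp13a5. Spp1 encodes osteopontin, a secreted phosphoprotein that binds integrins through an RGD motif and also binds CD44. It is best known from bone, where RUNX2 controls its transcription, and in the brain it is commonly read as a product of activated microglia and of fibroblast-like cells.

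Because Spp1 was the leading transcript of the group, its promoter is shown. The gene lies at chr5:104435118-104441050 on the plus strand (GRCm38, GENCODE M21), and the window below covers chr5:104434861-104435160 of GRCm38.p6 as RefSeq gives it, 250 bases before the start and 50 from it onwards, the first of 2 starts listed. Capitals mark the letters TATAAA, then AACCACA (the core that RUNX factors recognise) and last ATTGG, which reads CCAAT on the other strand.

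Spp1: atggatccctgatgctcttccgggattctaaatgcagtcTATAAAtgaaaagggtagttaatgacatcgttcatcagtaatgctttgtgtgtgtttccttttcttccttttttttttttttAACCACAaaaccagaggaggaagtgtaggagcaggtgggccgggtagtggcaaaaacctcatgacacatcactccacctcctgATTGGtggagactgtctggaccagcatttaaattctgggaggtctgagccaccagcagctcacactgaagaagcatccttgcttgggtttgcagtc

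AACCACA lay 129 to 123 bases before the start, and 5.27% of all 32851 promoter windows of this length held it on either strand. CCAAT lay 46 to 42 bases before the start (37.4% of windows) and TATAAA 211 to 206 bases before it (13.6% of windows). Neither GGAATG (the TEAD core, 14.7% of windows), nor TGANTCA (AP-1, 7.81%), nor TGGGAA (the RBPJ core, 25.6%) was found in the window on either strand. Of the genes past 2-fold described below, 10 of the 11 higher and 11 of the 15 lower had a promoter entry. Spp1 alone of these held AACCACA in its first promoter, against 5.37% of 27025 first promoters over all genes. A match or its absence describes these letters and says nothing of what binds there.

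Depth was read first. In the NG2 naïve library the cells of cluster 7 had a median of 3504 UMIs (581 to 10678) and 1863.5 genes, against medians of 3811, 3045 and 4270.5 UMIs in clusters 0, 1 and 2, and a median mitochondrial share of 2.56%. The summed cluster held 881257 UMIs, so a count of 0 allowed up to 3.4 CPM, counts scaled to 1000000 UMIs, taking 3 counts as the floor. In the Tbx18 naïve library the 27 cells had a median of 3670 UMIs (761 to 11097), against medians of 5461.5, 4041 and 6288 UMIs in clusters 0, 1 and 2, and summed to 112195 UMIs, where a count of 0 allowed up to 26.7 CPM. No barcode occurred in both naïve libraries, any 2 of the 6 libraries shared at most 5, and 2 barcodes of cluster 7 recurred in an injured library.

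The cells of the NG2 line carried pericyte transcripts at a somewhat lower summed level than their neighbours. The 13 pericyte markers summed to 38016 CPM in cluster 7 and to 42320, 47058 and 40850 CPM in clusters 0, 1 and 2, and their median log2 ratio was -0.34, taking for each gene the middle of its ratios to the 3 clusters. All 13 were above 50 CPM in cluster 7, and Art3 alone differed from each of clusters 0, 1 and 2 by more than 2-fold. Vtn stood at 19981 CPM in cluster 7 and at 19910, 23345 and 16667 CPM in clusters 0, 1 and 2. The inward rectifier subunit Kcnj8 stood at 1332 CPM against 1679, 1748 and 1429 CPM. Its partner Abcc9 stood at 1118 CPM against 1464, 1392 and 1839 CPM. Both channel subunits were thus at the lower end of the 4 clusters, within 2-fold. Defining markers of other cells were at 0 UMIs in these 244 cells, among them Col1a1, Lum and Col15a1 (fibroblasts), Slc22a6, Slc47a1 and Cdh1 (meningeal barrier), Aqp4, Aldoc and Gja1 (astrocytes), Pecam1 and Cdh5 (endothelium), C1qa, C1qb and C1qc (microglia) and Pf4 and Cd163 (border macrophages). The endothelial gene Cldn5 stood at 2.27 CPM, and the smooth muscle actin Acta2 at 22.7 CPM.

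Over whole lists, all 11 fibroblast genes summed to 1312 CPM in cluster 7 and to 1942, 2510 and 1904 CPM in clusters 0, 1 and 2, with 4 of 11 at 0 in cluster 7. The matrix Gla protein Mgp, at 885 CPM, was the most abundant, and without it the order turned, the other 10 summing to 427 CPM against 314, 342 and 313 CPM. Col1a2, a collagen chain, was the most abundant of those 10, at 202 CPM, and none of the 4 that reached 50 CPM was past 2-fold. The 9 astrocyte genes summed to 6.81 CPM (Fgfr3 the most abundant, 6 at 0) and the 9 endothelial genes to 550 CPM (Emcn 409 CPM, 2 at 0), against 472, 472 and 558 CPM of endothelial genes in clusters 0, 1 and 2. Haemoglobin transcripts were at 0 in cluster 7, while the erythroid list summed to 677 CPM in cluster 1 and to at most 1.17 CPM in clusters 0 and 2.

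The 27 cells of the Tbx18 line were less uniform, which matters for every value taken from them. In the study's separate clustering of all Tbx18-line cells they were spread over cluster 3 (16 cells), cluster 2 (8 cells) and cluster 5 (3 cells). The study names these clusters microglia, canonical pericytes and fibroblasts, and none of the 27 fell in cluster 4, its vascular-genic pericytes. Over its 659 cells from all 3 conditions, Tbx18-line cluster 3 had Cd74 at 12625 CPM, C1qa at 1719 CPM and Vtn at 128 CPM. The 16 cells went against that name, with 1 UMI of C1qa and none of Cd74, whereas Vtn, at 9372 CPM, Rgs5 and Atp13a5 each had a UMI in all 16. Abcc9 stood at 1185 CPM, and the cells were shallow (median 1461 UMIs). The same Tbx18-line cluster also took 7, 5 and 22 cells of naïve clusters 0, 1 and 2. The 3 cells of cluster 5 had no UMI of Kcnj8 or Abcc9, and a pair of them, with 11097 and 9043 UMIs, held 1.60% and 0.907% of their UMIs in 10 fibroblast genes (Mgp left out), against a median of 0.0358% and a highest value of 0.229% over the 244 NG2-line cells. These 3 cells supplied 509 UMIs of the meningeal enzyme Ptgds, 109 of the 112 Slc1a3 UMIs, 221 of the 254 Apoe UMIs and 53 of the 66 Slc6a13 UMIs of the 27 cells, but only 62 of the 210 Spp1 UMIs. Tbx18-line values are therefore given with and without these 3 cells. The 9 endothelial genes summed to 1007 CPM in the 27 cells and to 599, 472 and 497 CPM in clusters 0, 1 and 2. Cldn5 and Abcb1a were past 2-fold, and all 11 Cldn5 UMIs lay in the 16 cells of Tbx18-line cluster 3, which both versions keep. The NG2 naïve library carries the description that follows.

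**Figure D1:**
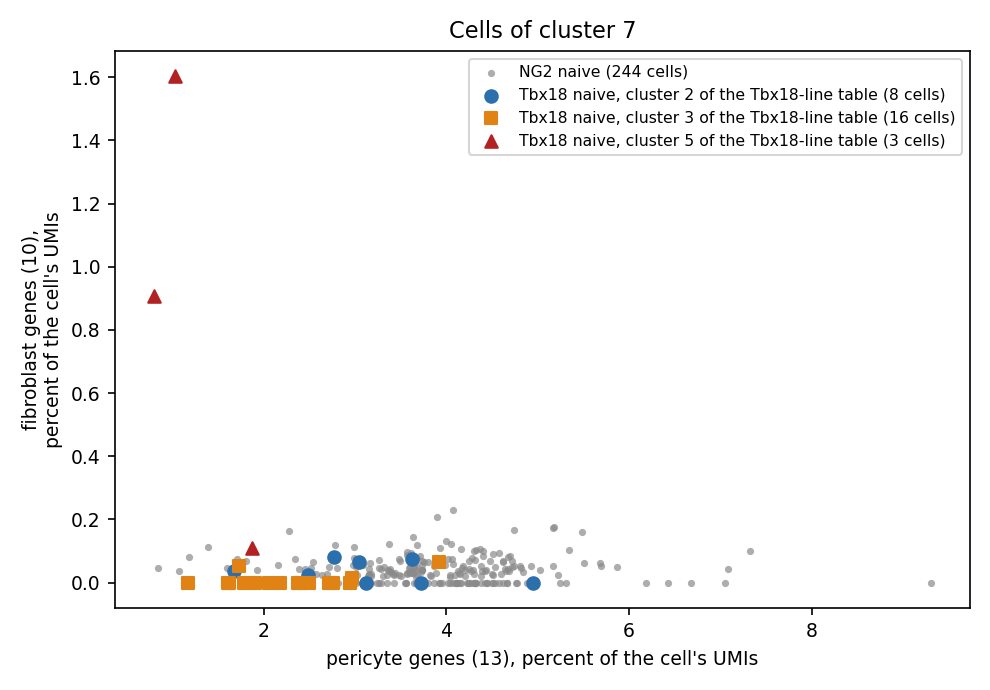
Share of each cluster 7 cell's UMIs in 13 pericyte genes (horizontal axis, percent) and in 10 fibroblast genes (vertical axis, percent), with 1 point per cell and the Tbx18-line cells marked by their cluster in the Tbx18-line clustering. A pair of Tbx18-line cluster 5 cells, at 1.60% and 0.907%, stand above all 244 NG2-line cells, which reach 0.229%.

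Spp1 separated cluster 7 from every other naïve cluster. In the NG2 naïve library its level was 3130 CPM (exact Poisson 95% interval 3014 to 3249) in cluster 7 and 75.0, 93.0 and 71.1 CPM in clusters 0, 1 and 2, a fold of 40.1 (36.8 to 43.8) over the 3 combined. Only clusters 3, at 290 CPM, and 6, at 161 CPM, exceeded 93.0 CPM elsewhere, and cluster 13 had no UMI. Cluster 7 held 2758 of the library's 4077 Spp1 UMIs, or 67.6%, in 5.67% of its cells. In the Tbx18 naïve library the level was 1872 CPM (1627 to 2143) in cluster 7 against 43.2, 67.5 and 23.4 CPM, a fold of 47.4 (32.9 to 70.2) that stood at 42.4 (29.0 to 63.5) without the 3 cells of Tbx18-line cluster 5. Among the other clusters of that library cluster 6 was highest, at 292 CPM, with an Spp1 UMI in 26.4% of its 246 cells. In both lines cluster 7 thus stood far above the rest.

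Most cells of the cluster shared in that level, unequally. An Spp1 UMI was found in 95.5% of the 244 NG2-line cells and in 83.8% of the 241 cells that could be thinned to 1000 UMIs. The matching shares in clusters 0, 1 and 2 were 12.9%, 14.4% and 12.5%, or 5.34%, 6.98% and 6.39% at 1000 UMIs. As a gauge of free RNA, smooth muscle cells of the same library, with a median of 7909 UMIs, had an Spp1 UMI in 1.59% (0.689 to 3.11) of 503 cells, and its endothelial cells, with a median of 5720 UMIs, in 6.93% (2.83 to 13.8) of 101 cells. Per cell, Spp1 in cluster 7 had a median of 22.3 UMIs per 10000 (quartiles 13.2 and 44.0, highest 366), 11 cells had none, and the 24 cells with most held 34.4% of the cluster's Spp1 UMIs. In the 27 Tbx18-line cells the median was 11.1 per 10000, and 3 cells had none. The Tbx18 naïve library had an Spp1 UMI in 1.59% (0.0402 to 8.53) of 63 smooth muscle cells and in 3.14% (1.03 to 7.19) of 159 endothelial cells.

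**Figure D2:**
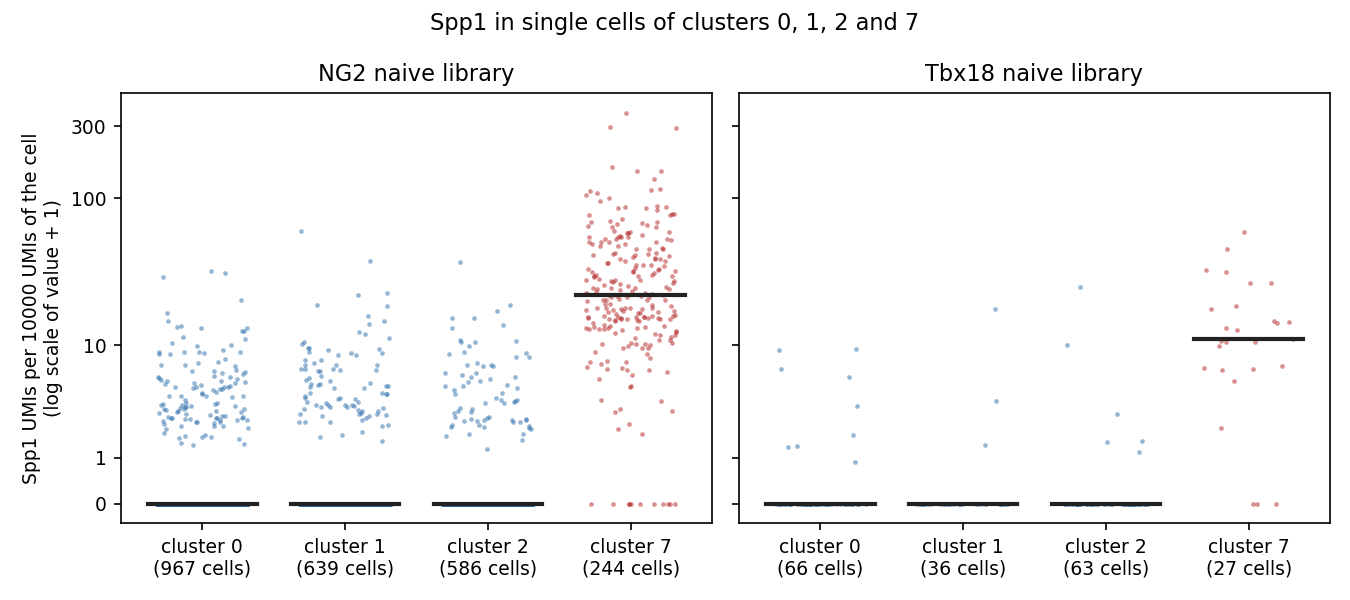
Spp1 UMIs per 10000 UMIs in single cells (vertical axis, log scale of the value + 1) of cluster 7 and of clusters 0, 1 and 2, for the NG2 and the Tbx18 naïve libraries; each point is 1 cell and each bar a median. Most cluster 7 cells lie above zero, with a median of 22.3 in the NG2 line and 11.1 in the Tbx18 line, whereas the median of each other cluster is 0.

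Beyond Spp1 the separation was narrow. Of 4580 genes with at least 50 CPM in any of clusters 0, 1, 2 and 7, 11 were at least 2-fold higher in cluster 7 than in each of the others (0.24% of those measured) and 15 were at least 2-fold lower (0.328%). Log2 ratios of CPM with a pseudocount of 1 CPM were counted, and the higher side of each comparison had to reach 50 CPM. Applied to each neighbour against the other clusters of the 4, the same count gave 0 higher and 0 lower for cluster 0, 3 and 3 for cluster 1, and 8 and 1 for cluster 2. Taken singly, cluster 7 lay nearest to cluster 0, with 26 genes higher (0.568%) and 28 lower (0.611%). Against cluster 1, 102 genes were higher (2.23%) and 43 lower (0.939%), and against cluster 2, 51 were higher (1.11%) and 68 lower (1.48%).

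**Figure D3:**
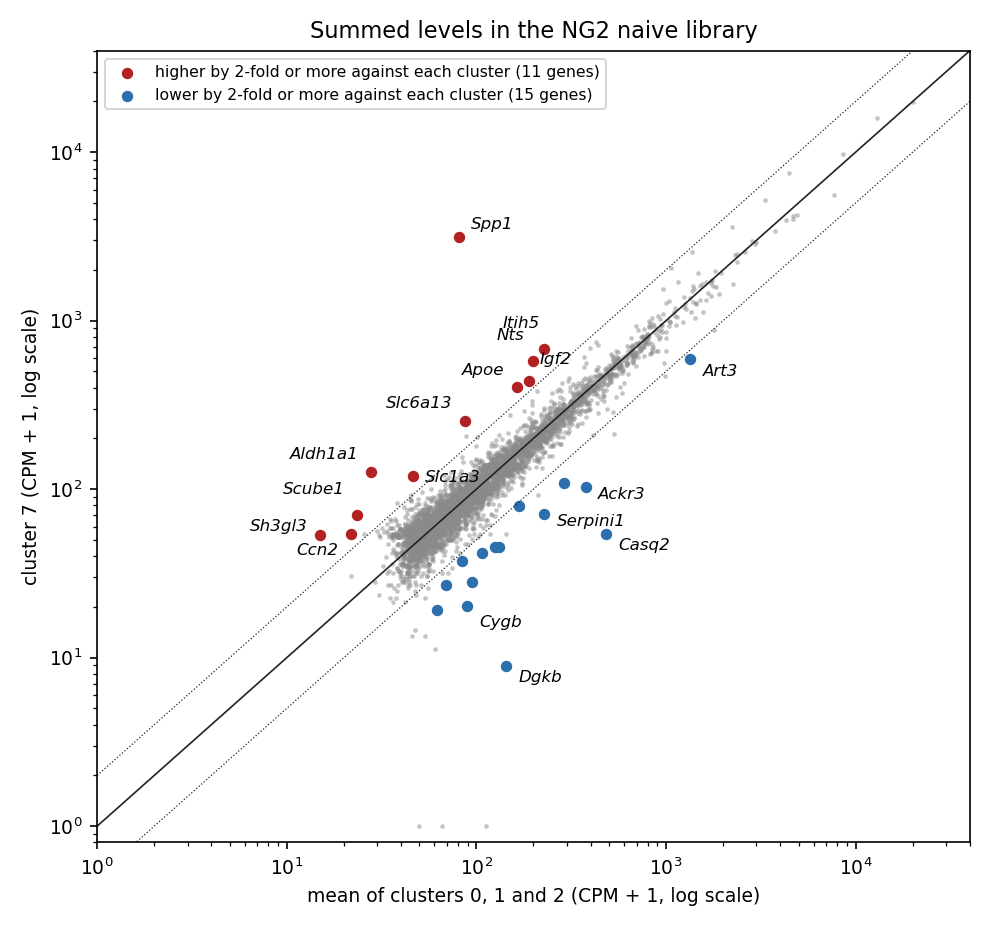
Level of each gene in NG2 naïve cluster 7 (vertical axis) against its mean over clusters 0, 1 and 2 (horizontal axis), both as CPM + 1 on log scales, with the diagonal, dotted lines at 2-fold and the genes past 2-fold against each of the 3 clusters in colour. Spp1, at 3130 CPM, is the point farthest above the diagonal, and of the coloured points Dgkb, at 7.94 CPM, and Casq2, at 53.3 CPM, lie farthest below it. The grey points at the bottom are 3 globin genes, at 0 CPM in cluster 7 and, among clusters 0, 1 and 2, high in cluster 1 alone.

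The other marker transcripts given for the cluster encode enzymes, transporters and secreted factors, and they differed by far less than Spp1. Aldh1a1 (chr19:20492715-20643465), a retinaldehyde dehydrogenase that makes retinoic acid, stood at 126 CPM against 23.9, 21.3 and 35.2 CPM, a fold of 4.70 (3.71 to 5.93). The GABA and taurine transporter Slc6a13 (chr6:121300227-121337733) stood at 254 CPM against 81.7, 112 and 66.0 CPM, a fold of 3.03 (2.60 to 3.53). Slc1a3 (chr15:8634124-8710764), the glutamate transporter GLAST of astrocytes, stood at 119 CPM against 40.6, 43.1 and 51.6 CPM, a fold of 2.67 (2.13 to 3.33). Those 3 lay above the highest neighbour by at least 2-fold. They were given as markers of these same cells, so their intervals describe counting error and support nothing. Igf2 (chr7:142650766-142666816), an insulin-like growth factor, stood at 438 CPM against 167, 192 and 209 CPM, a fold of 2.36 (2.10 to 2.64). Scube1 (chr15:83604999-83725021), a CUB and EGF domain protein, stood at 69.2 CPM against 22.0, 20.3 and 25.4 CPM, a fold of 3.05 (2.25 to 4.10). All of these coordinates are from GENCODE M21 on GRCm38.

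The other markers were found in fewer cells than Spp1. An Slc6a13 UMI was found in 51.6% of cluster 7 cells, one of Igf2 in 51.2%, Aldh1a1 in 28.3%, Slc1a3 in 27.5% and Scube1 in 20.5%. At 1000 UMIs per cell the shares were 22.8%, 24.9%, 12.9%, 9.96% and 5.39%, in that order. At that depth, UMIs of at least 3 of the 6 markers occurred together in 36 of 241 cells, 14.9% (10.7 to 20.1), against 0.524%, 0.812% and 0.864% of the cells in clusters 0, 1 and 2. Inside cluster 7, cells with both an Spp1 UMI and a UMI of another marker were 0.974 to 1.19 times as many as the product of their shares. For the other 10 pairs of markers that figure ran from 0.548 (Slc6a13 with Slc1a3, 3 cells) to 2.39 (Aldh1a1 with Scube1, 4 cells).

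The other 5 genes at least 2-fold higher were Sh3gl3, Itih5, Nts, Ccn2 and Apoe. Itih5, a hyaluronan-binding inter-alpha-trypsin inhibitor heavy chain, stood at 682 CPM against 237, 213 and 227 CPM, a fold of 2.99 (2.72 to 3.28), with a UMI in 180 of 244 cells. Apoe, the lipid-carrying apolipoprotein, stood at 402 CPM against 155, 192 and 143 CPM, a fold of 2.51 (2.23 to 2.83). Nts, the neuropeptide neurotensin, stood at 576 CPM against 243, 242 and 108 CPM, a fold of 2.88 (2.60 to 3.18). Itih5 was the most widely found of these after Spp1, while Nts came from 93 of the 244 cells. Sh3gl3, an endophilin of membrane curvature, stood at 52.2 CPM against 14.5, 14.6 and 12.9 CPM, a fold of 3.72 (2.59 to 5.29). Ccn2, the matricellular factor CTGF, stood at 53.3 CPM against 22.6, 22.9 and 16.8 CPM, a fold of 2.56 (1.81 to 3.55), from 22 cells.

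Next in that order, and short of 2-fold against at least 1 neighbour, came Sall1 at 81.7 CPM, Id3 at 207 CPM, Lrrc32 at 115 CPM, Cdc42ep3 at 77.2 CPM, Lpar1 at 65.8 CPM, Slc29a1 at 53.3 CPM, Fbln1 at 86.2 CPM, Serpine2 at 61.3 CPM and Apod at 153 CPM. Their folds over the 3 clusters combined ran from 1.79 (1.38 to 2.29) for Fbln1, a fibulin of the matrix, to 2.29 (1.94 to 2.70) for Id3, a BMP-responsive inhibitor of bHLH factors. Id3 missed the count through cluster 0, at 109 CPM, and was 63.3 CPM in cluster 2.

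The genes that were lower were led by Casq2 and Dgkb. Casq2 (chr3:102086415-102146514, plus strand), calsequestrin 2 of the sarcoplasmic reticulum, stood at 53.3 CPM against 406, 462 and 574 CPM, 0.113 times (0.0830 to 0.151) the level of the 3 clusters combined. A Casq2 UMI was found in 28 of 244 cells. Dgkb (chr12:37817726-38634239, plus strand), diacylglycerol kinase beta, stood at 7.94 CPM against 110, 77.4 and 238 CPM, 0.0558 times (0.0224 to 0.115), from 7 UMIs in 6 cells. Of the 26 genes past 2-fold these had the lowest levels relative to the neighbours.

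Membrane receptors and channels followed. Ackr3, the scavenging receptor for CXCL12, stood at 102 CPM against 335, 392 and 400 CPM, 0.277 times (0.222 to 0.341). Kcnk3, the potassium channel TASK-1, stood at 26.1 CPM, 0.387 times (0.243 to 0.587) the combined level. The ADP-ribosyltransferase family member Art3, itself a pericyte marker, stood at 590 CPM against 1238, 1449 and 1345 CPM, 0.447 times (0.408 to 0.488). Art3 was the most abundant of the lower genes and was still found in 183 of 244 cells.

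Secreted and enzymatic products were also among them. Serpini1, neuroserpin, an inhibitor of tissue plasminogen activator, stood at 70.4 CPM against 198, 220 and 261 CPM, 0.316 times (0.241 to 0.407). Cygb, the globin cytoglobin, stood at 19.3 CPM against 102, 83.1 and 78.9 CPM, 0.213 times (0.123 to 0.343). Nrarp, a Notch target that limits Notch signalling, stood at 44.3 CPM against 142, 121 and 109 CPM, 0.350 times (0.248 to 0.482). The rest were the glutathione transferase Mgst3 (0.300 times), the cadherin Cdh4 (0.292), the phosphatase Ptp4a3 (0.379), the chondroitin sulfotransferase Chst3 (0.441), the junction protein Ajap1 (0.467), and Mndal (0.345) and Ifi203 (0.392) of the interferon-inducible p200 family. Mndal (chr1:173849126-173942491) and Ifi203 (chr1:173920407-173942672) overlap on the genome, so their counts are uncertain as separate results.

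**Figure D4:**
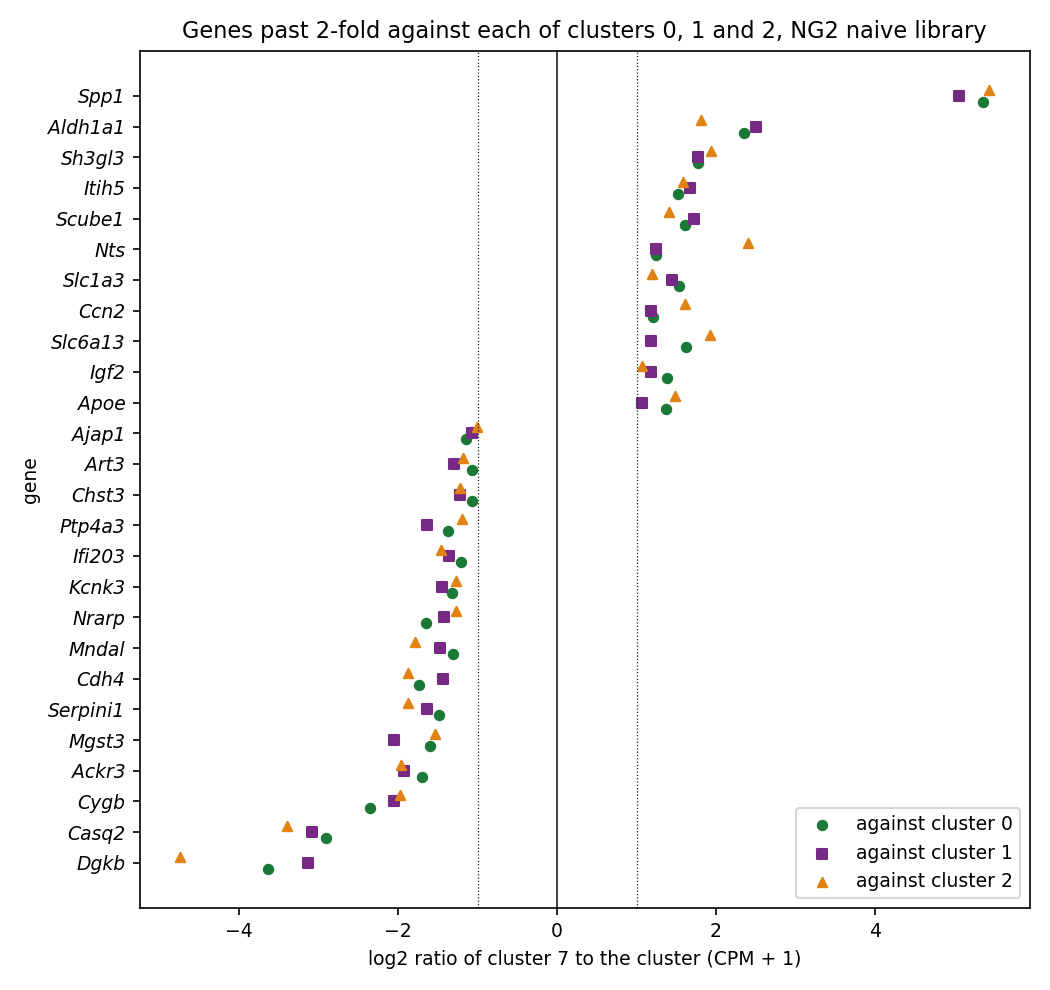
Log2 ratio of cluster 7 to each of clusters 0, 1 and 2 (1 point per cluster, pseudocount 1 CPM) for the 26 genes past 2-fold in the NG2 naïve library, with dotted lines at 2-fold. Spp1 is farthest to the right, at 5.06 to 5.44, and Dgkb, at -4.74 to -3.13, and Casq2, at -3.40 to -2.90, are farthest to the left.

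Other genes of the pathways were few at these levels. Each gene was given the middle of its 3 log2 ratios, against clusters 0, 1 and 2. The median of that value over all 4580 genes was 0.01, and each list below counts its members at or above 50 CPM in any of the 4 clusters. The osteopontin receptors had 5 such members, none past 2-fold, with a median of 0.04. Their summed level was 1889 CPM in cluster 7 and 1801, 1908 and 2178 CPM in clusters 0, 1 and 2, the β1 integrin chain Itgb1 was the most abundant at 1067 CPM, and Cd44 and Itgb3 were at 0. Of 12 mineralization genes found, 3 reached 50 CPM, and Spp1 was the only one past 2-fold. Mgp, an inhibitor of calcification, stood at 885 CPM against 1628, 2168 and 1592 CPM, the phosphate transporter Slc20a2 at 56.7 CPM against 38.4, 35.9 and 44.5 CPM, and Runx2 at 26.1 CPM against 18.8, 11.95 and 24.6 CPM.

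Retinoic acid genes numbered 16, 2 of them at 50 CPM. Aldh1a1 alone passed 2-fold, and the other, the retinoic acid receptor Rarb, stood at 46.5 CPM against 30.1, 18.2 and 51.6 CPM, with Aldh1a2, Crabp2 and Cyp26b1 at 0. Of 14 genes of GABA and glutamate handling 3 reached 50 CPM. Slc6a13 and Slc1a3 were higher, and the third, the glutamine synthetase gene Glul, stood at 81.7 CPM against 58.3, 53.0 and 46.1 CPM. The IGF list, with 5 members at 50 CPM, had only Igf2 higher, and the median of the other 4 was -0.13. Igfbp7, its most abundant gene, stood at 4200 CPM, between 4117 and 5433 CPM in the neighbours. In the SCUBE, hedgehog and BMP list 1 of 8, Scube1, was higher, and the median of the other 7 was 0.11. In these lists the members past 2-fold were all among the 6 markers, around which the lists had been drawn up.

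In the lists on pericyte and other functions that follow, 1 member was past 2-fold, while list medians ran from -0.32 to 0.62. The KATP channel and vasoactive list had 11 members at 50 CPM, none past 2-fold, and a median of -0.19, with Rgs5, a regulator of G protein signalling, at 5550 CPM against 7452, 7494 and 8137 CPM. Contractile genes (7 members, median -0.32), pericyte transporters (8, 0.16), basement membrane and matrix (15, 0.29), mural and mesenchymal transcription factors (18, 0.13), Wnt (6, 0.58), chemokines and cytokines (3, 0.62), interferon response (4, 0.05), semaphorins, slits and netrins (4, -0.20), ribosomal proteins (84, -0.08) and mitochondrial genes (13, -0.07) had none past 2-fold in either direction. Of 9 PDGF and Notch genes, Nrarp was lower, and Pdgfrb, which encodes PDGF receptor β, stood at 1463 CPM against 1488, 1625 and 1876 CPM.

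Immediate early genes moved with the comparison and are given beside it. All 20 were detected, 19 reached 50 CPM, and their sum was 27586 CPM in cluster 7 against 36825, 5892 and 7892 CPM in clusters 0, 1 and 2. Jun, the most abundant, stood at 7489 CPM against 9459, 1512 and 2435 CPM, and Fos at 5182 CPM against 8104, 724 and 1168 CPM. Cluster 7 thus resembled cluster 0 and not clusters 1 and 2 in these dissociation- and stress-responsive transcripts. None of the 20 was past 2-fold against all 3 clusters. Their part in the other differences was not tested across libraries.

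The study's second clustering, of the NG2 line with its injured libraries, divided these cells in another way. There the 244 cells did not stay together, and 102 fell into its cluster 1, 77 into cluster 0, 63 into cluster 2 and 2 into cluster 8. Within clusters 0, 1 and 2 of that clustering the 11 higher genes were all higher and the 15 lower genes all lower in the naïve cluster 7 cells than in the other naïve pericytes, with 8 of 11 and 9 of 15 past 2-fold in all 3. Of all 4580 genes, 16.4% were higher and 19.5% lower in all 3, and 0.175% and 0.349% were so by 2-fold. The 26 genes had been chosen for these directions in the same cells, so the counts are a description and support nothing. The Spp1 fold was 45.2, 45.5 and 27.7 and the Casq2 fold 0.0920, 0.0853 and 0.153 in those clusters. Jun in the cluster 7 cells was 12392 CPM against 11090 CPM in the others in the first, 4266 against 2951 CPM in the second and 5646 against 2761 CPM in the third.

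The 244 cells also differed among themselves. They were divided at the median Spp1 rate into 122 with more, with a median of 2926.5 UMIs, and 122 with fewer, with a median of 3930.5 UMIs. Aldh1a1 stood at 177 CPM in the first and 87.0 CPM in the second, a ratio of 2.04 (1.37 to 3.06), and Scube1 at 98.9 and 46.5 CPM, a ratio of 2.13 (1.24 to 3.74). Serpini1 ran the other way, at 36.5 and 97.1 CPM, 0.38 times (0.19 to 0.69), as did Nrarp, at 0.44 times (0.19 to 0.94). Slc6a13 (1.36 times, 1.04 to 1.78) and Apoe (1.26 times, 1.02 to 1.56) were higher with more Spp1, and Art3 (0.729 times, 0.606 to 0.875) and Lrrc32 (0.597 times, 0.380 to 0.921) lower. Pericyte transcripts went both ways, with Vtn at 1.12 times, Kcnj8 at 1.22 times and Atp13a5 at 0.799 times, each with an interval clear of 1. For Casq2 (0.66 times, 0.34 to 1.25) and Igf2 (1.05 times, 0.85 to 1.28) the interval held 1. Kcnk3, lower in the cluster as a whole, was 2.94 times (1.15 to 8.46) as high in the cells with more Spp1, from 16 and 7 UMIs. These ratios compare cells that the clustering had already joined.

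Over the 14 naïve clusters of the NG2 library, the genes whose level went most nearly with Spp1, among 7763 genes, were Scube1 (Pearson r of log2 levels 0.894), Sfrp2 (0.851), Slc6a13 (0.827), Nts (0.824) and Renbp (0.824). The clusters share a library and differ in depth, and the coefficient is a description. Sfrp2, a secreted Wnt modulator, stood at 80.6 CPM in cluster 7 against 56.4, 53.0 and 32.8 CPM, and Renbp, the renin-binding protein, at 28.4 CPM against 17.7, 21.8 and 17.6 CPM.

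Cells with much Spp1 also occurred outside cluster 7. A cell was called Spp1-high with at least 10 Spp1 UMIs per 10000 and at least 3 UMIs, a rule set after the data were seen. It took in 203 of the 244 cluster 7 cells (83.2%), 9 of the 27 in the Tbx18 line, and in the NG2 line 14, 11, 10 and 37 cells of clusters 0, 1, 2 and 3. Those 72 cells, 37 of them from cluster 3, were compared with the 2567 others of the same 4 clusters, 410 of them from cluster 3. Of the 10 higher genes other than Spp1, 9 were higher in them and 6 had an interval above 1, and all 15 lower genes were lower, 11 with an interval below 1. The median log2 folds were 0.81 and -0.89, against -0.04 over 3898 genes, of which 1762 were higher (5.08% with an interval above 1) and 2136 lower (6.13% with an interval below 1). Casq2 stood at 126 CPM in these cells and 477 CPM in the others, 0.264 times (0.182 to 0.372), Dgkb at 7.64 and 134 CPM, and Aldh1a1 at 91.7 and 25.0 CPM, 3.66 times (2.30 to 5.58). Nts, at 0.988 times (0.733 to 1.30), and Cygb, at 0.980 times (0.625 to 1.47), were close to 1, as was Vtn at 1.10 times.

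The higher genes in that comparison rested on cluster 3. Without it, 35 Spp1-high cells of clusters 0, 1 and 2 were left against 2157 others. Only 4 of the 10 higher genes were then higher, 2 of them (Itih5 and Apoe) with an interval above 1, and their median log2 fold was -0.06. Of the 15 lower genes 14 were lower, 6 with an interval below 1, and the median was -0.82, a gene with no UMI ranking lowest. Over 3921 genes the median was -0.03, with 3.55% above and 3.16% below 1 by their interval. Aldh1a1 stood at 0.946 times (0.194 to 2.80), from 3 UMIs, and Slc6a13 at 0.907 times (0.413 to 1.73). Casq2 stood at 0.409 times (0.259 to 0.615), and Dgkb had no UMI in the 35 cells. In these 35 cells most of the lower genes were thus still lower, with Cygb the exception, and most of the higher genes were not higher.

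The injured libraries were not part of the naïve clustering, so the same pairing of genes could be read there. In the NG2-line clusters that the study names activated and canonical pericytes (clusters 0, 1, 2 and 10 of that clustering), Spp1-high cells made up 8.28% (7.36 to 9.27, 272 of 3287 cells) of the naïve library, 201 of them in cluster 7. They made up 3.45% (2.47 to 4.69, 39 of 1129) of the library with a physical injury and 5.41% (4.16 to 6.89, 61 of 1128) of the library with an ischemic injury. Median depth was 3810, 4665 and 4145 UMIs over all cells of these clusters, in that order. The summed Spp1 level in these pericytes was 305, 110 and 198 CPM, in the same order, with an Spp1 UMI in 19.3%, 12.8% and 16.1% of cells and in 1.59%, 1.24% and 4.33% of smooth muscle cells. Counting by at least 3 of the 6 markers at 1000 UMIs gave 1.66% (54 of 3247), 0.451% (5 of 1108) and 0.281% (3 of 1068) of cells. Cluster 8 of that clustering, which the study names mesenchymal-like pericytes, was in neither count. Over its 498 cells from all conditions Spp1 stood at 594 CPM, against 249.5, 340, 153 and 36.8 CPM in clusters 0, 1, 2 and 10. In the clusters counted, the naïve library was highest by both counts, and the order of the injured libraries was not the same. With 1 library each, and with intact cortex in one and damaged cortex in the others, condition, library and tissue sampled cannot be told apart.

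The 39 Spp1-high cells after physical injury and the 61 after ischemic injury were then set against the other cells of the same clusters in their own library. After physical injury, 8 of the 10 higher genes were higher (5 with an interval above 1) and 14 of the 15 lower genes were lower (11 with an interval below 1). After ischemic injury the counts were 9 (5) and 15 (8). Median log2 folds were 1.14 and -1.02 after physical injury and 0.74 and -0.58 after ischemic injury, against -0.03 over 3934 genes and -0.02 over 3870 genes. Of all those genes 1849 were higher and 2085 lower after physical injury (4.25% with an interval above 1 and 5.26% with one below), and 1840 and 2030 after ischemic injury (7.39% and 7.57%). By this rule most of the 25 directions were found in both injured libraries of the NG2 line. The few cells with at least 3 of the 6 markers gave less, read on the genes that are not markers. After physical injury 5 such cells had 4 of 5 higher genes higher and 12 of 15 lower genes lower, where 1840 of 3938 genes were higher and 2098 lower. After ischemic injury 3 such cells had 2 of 5 higher and 14 of 15 lower, where 1687 of 3870 genes were higher and 2183 lower. In the Tbx18 line after physical injury, 3 Spp1-high pericytes had 6 of 10 higher genes higher (3 with an interval above 1) and 12 of 15 lower genes lower (1 with an interval below 1). Of all 4043 genes there, 1691 were higher (3.76% with an interval above 1) and 2352 lower (1.19% with an interval below 1).

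Casq2 was again among the clearest of them. It stood at 188 CPM in Spp1-high cells and 611 CPM in the others after physical injury, 0.307 times (0.210 to 0.435), and at 174 and 607 CPM after ischemic injury, 0.286 times (0.204 to 0.391). Dgkb was 0.223 times (0.107 to 0.411) and 0.153 times (0.0561 to 0.335) as high, and Serpini1 0.305 times (0.174 to 0.496) and 0.454 times (0.300 to 0.660). The Casq2 difference was smaller than in cluster 7 itself, where it was at 0.113 times. Itih5 was 2.71 times (2.19 to 3.33) and 1.78 times (1.41 to 2.21) as high, Slc6a13 2.37 times (1.54 to 3.51) and 2.07 times (1.38 to 3.00), and Apoe 2.25 times (1.65 to 3.01) and 1.83 times (1.36 to 2.42). Those 3 stood higher in both injured libraries.

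Other members of the set did not hold between the injured libraries. Aldh1a1 was 3.26 times (1.71 to 5.78) as high after ischemic injury but rested on 2 UMIs after physical injury, at 0.771 times (0.092 to 2.88). Ccn2 was 3.82 times (2.36 to 5.95) as high after ischemic injury and 0.147 times (0.0037 to 0.827), from 1 UMI, after physical injury. Nts was 2.27 times (1.61 to 3.11) as high after physical injury and 0.772 times (0.501 to 1.14) after ischemic injury. The intervals of Igf2 and Slc1a3 held 1 in both. Of pericyte transcripts, Vtn stood at 1.16 and 1.02 times, Kcnj8 at 1.34 and 0.934 times and Art3 at 0.781 and 0.688 times. The microglial C1qa had 3 and 1 UMIs in the Spp1-high cells.

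**Figure D5:**
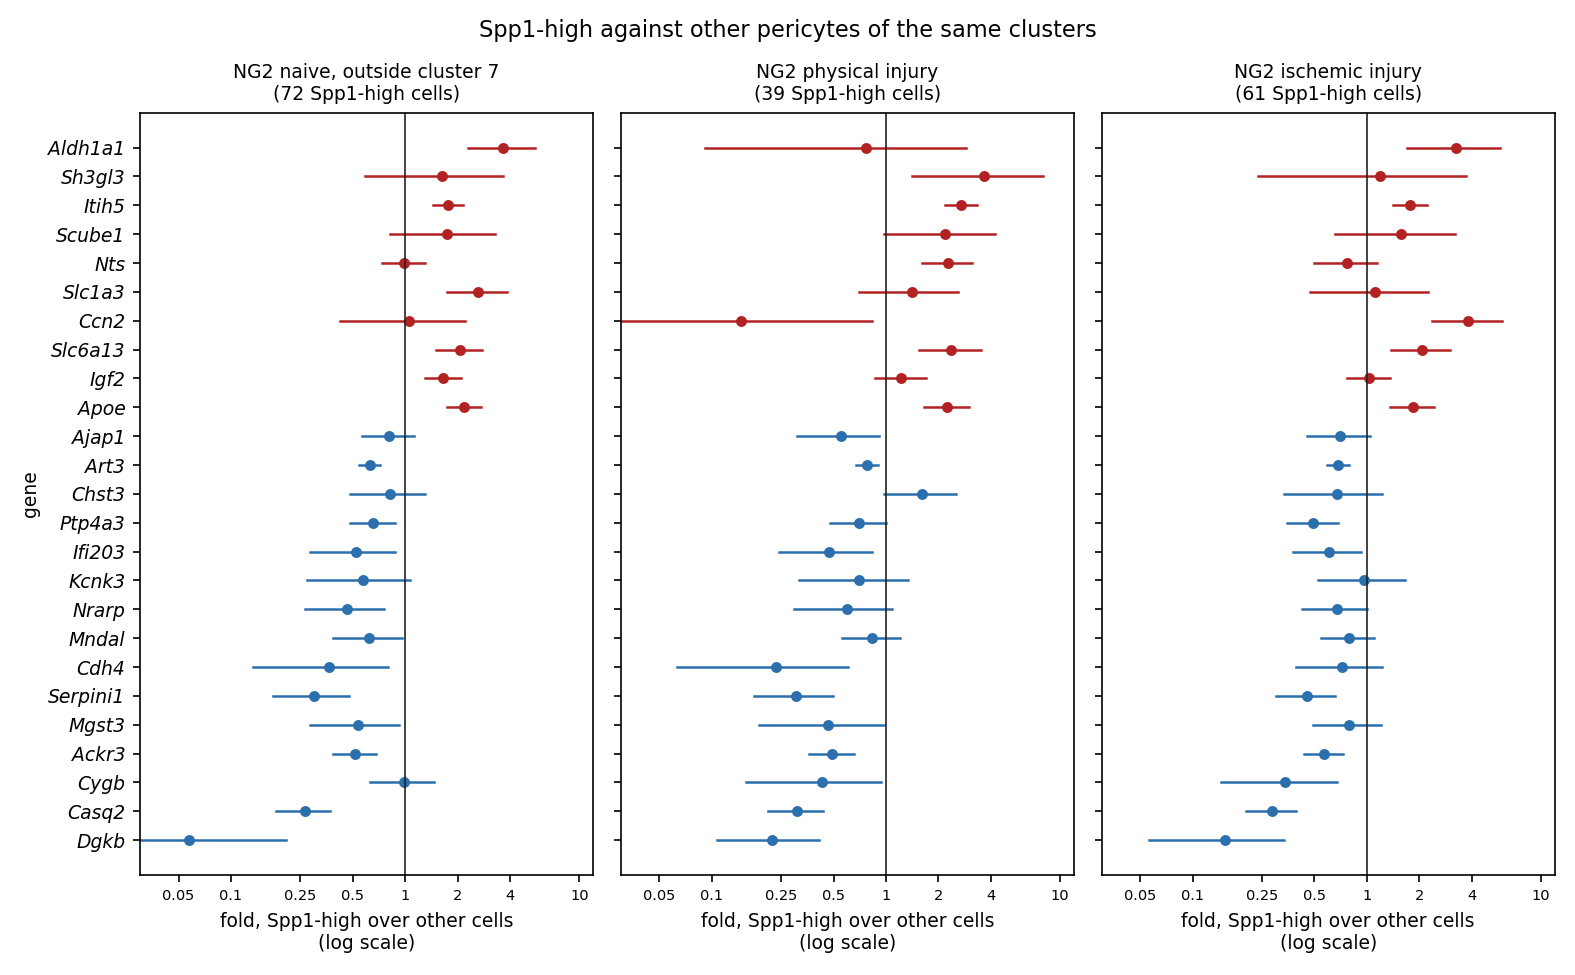
Fold of 10 genes higher (red) and 15 lower (blue) in cluster 7, in Spp1-high cells over the other cells (log axis, bars are exact 95% counting intervals, cut at 0.03 on the left), for NG2 naïve cells of clusters 0, 1, 2 and 3 and for the pericytes of the libraries with physical and ischemic injury. Casq2, Dgkb and Serpini1 lie below 1 in all 3 sets, at 0.264, 0.307 and 0.286 for Casq2, and Slc6a13, Itih5 and Apoe lie above 1 in all 3, although Slc6a13 stood at 0.907 in the naïve set once cluster 3 was left out.

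The same genes were read in the Tbx18 line. Of 5438 genes measured, 291 (5.35%) were at least 2-fold higher and 145 (2.67%) at least 2-fold lower in the 27 cells than in each of clusters 0, 1 and 2, far more than in the NG2 line, from 112195 UMIs. Each neighbour against the other clusters of the 4 gave 16 higher and 10 lower for cluster 0. For cluster 1, with 148182 UMIs, the counts were 126 and 177, and for cluster 2 they were 29 and 19. Of the 15 genes lower in the NG2 line, all 15 had a fold below 1 over the 3 clusters combined, and 13 did without the 3 cells of Tbx18-line cluster 5, against 52.6% and 53.4% of all genes measured. The interval lay below 1 for 12 and for 7 of them, against 6.62% and 4.83% of all genes. Casq2 stood at 62.4 CPM against 356, 560 and 430 CPM, 0.148 times (0.0592 to 0.309), and at 0.188 times without the 3 cells. Ackr3 was at 0.226 and 0.287 times and Art3 at 0.246 and 0.313 times, with and without them. Cygb had no UMI. Dgkb departed from the NG2 line, at 0.889 times (0.557 to 1.36), and its 24 UMIs were all in 11 of the 16 cells that the Tbx18-line clustering placed in cluster 3, where the endothelial Cldn5 also had its 11 UMIs, in 4 cells.

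Of the 11 genes higher in the NG2 line 9 were above 1 in the Tbx18 line, and 7 without the 3 cells, against 47.4% and 46.6% of all genes. The interval lay above 1 for 9 and for 4 of them, against 10.0% and 7.85% of all genes. Slc1a3 went from 17.2 times (12.2 to 24.5) to 0.584 times (0.117 to 1.81), Igf2 from 2.45 to 0.788 times, Slc6a13 from 6.49 to 1.62 times, Aldh1a1 from 11.1 to 2.52 times and Apoe from 16.1 to 2.66 times. Itih5 kept an interval above 1, at 6.89 and then 2.71 times (2.03 to 3.58). The fibroblast transcripts named above moved with the first of each pair of values. Spp1, Itih5, Casq2, Ackr3 and Art3 were thus among the transcripts that differed in one direction in both lines with or without the 3 cells. In Tbx18-line cluster 2, its canonical pericytes, Spp1-high cells were 2.65% (0.980 to 5.69, 6 of 226) of the cluster's naïve cells. They were 0.693% (0.143 to 2.01, 3 of 433) after physical injury and 0 of 86 after ischemic injury, for which the upper bound was 4.20%. That cluster held only 8 of the 27 cells, and 4 of the 9 Spp1-high ones among them, while 16 lay in Tbx18-line cluster 3.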

How the data were processed

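Libraries were made with a 10x Genomics 3' kit (v3 per the labels, a later revision in the study's methods) and aligned by the authors to GRCm38 (mm10) with Cell Ranger (7.0.0 in the submitters' processing notes). Per the authors' methods, cells with under 200 genes or over 12% mitochondrial UMIs, or beyond 2 SD, were removed, as were Gm42418 and AY036118, and cells were clustered in Seurat after integration. The deposited files held whole UMI counts per gene and cell, with cluster numbers for each cell; the deposited naïve table also held cells outside those stated filters, which were kept. No column of per-sample values was without a sample.

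For each library, the counts of a cluster's cells were added up per gene and given as CPM. Intervals are 95% exact Poisson for levels, exact binomial (Clopper-Pearson) for shares and exact conditional binomial for folds, for counting error only. UMIs are molecules, but cells of 1 library are not replicates, and with 1 library per group no test was made. The deposited unit called for edgeR's quasi-likelihood test, which needs replicates that were not there. A gene counted as higher or lower when its log2 ratio (pseudocount 1 CPM) passed 2-fold against each of clusters 0, 1 and 2 and it had at least 50 CPM in cluster 7 (higher) or in each of the 3 (lower); genes with at least 50 CPM in any of the 4 clusters were counted as measured. The folds printed are ratios of CPM over the 3 clusters combined. Named were the 6 given markers, the 20 highest and 10 lowest genes by that ratio (the lowest with at least 50 CPM in each of clusters 0, 1 and 2), list members past 2-fold, each list's most abundant gene, and the 5 genes most like Spp1 over clusters; other genes named were chosen after their values were seen. The members, markers and lists were chosen with earlier results of these data known. Doublets were scored with Scrublet (scanpy 1.11.5) and kept; among the 148 highest-scoring NG2-line cells 3 were of cluster 7, and among the 4 of the Tbx18 line 0 were. Shares were also taken after thinning each cell to 1000 UMIs, which left out 3 of the 244 cells. Levels are not corrected for transcript length. Scaling alternatives used edgeR 4.0.16 (TMM) and DESeq2 1.42.0 (size factors) in R 4.3.3, other steps Python 3.11.15 with numpy 2.4.6, scipy 1.17.1 and pandas 2.3.3, and figures matplotlib 3.10.9. The counting scripts were tested on simulated data with known folds. The summed level of the microglial list is not reported here.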

Additional observations from a re-analysis of the deposited data

Results flagged for a closer look

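The direction differed between the lines for 4 named genes, all higher than clusters 0, 1 and 2 combined in NG2-line cluster 7 and lower in Tbx18-line cluster 7. Nts stood at 2.88 times in the NG2 line and 0.655 times in the Tbx18 line, from 14 UMIs in 3 cells. Sh3gl3 stood at 3.72 times and 0.767 times, from 2 UMIs in 1 cell. Fbln1 stood at 1.79 times and 0.799 times. Serpine2 stood at 1.92 times and 0 times, with no UMI in the 27 cells, where a count of 0 allows up to 26.7 CPM. Without the 3 cells of Tbx18-line cluster 5, the Tbx18-line values were 0.831 times (0.445 to 1.43) for Nts and 1.01 times (0.315 to 2.54) for Fbln1, which was then no longer below 1, and Sh3gl3 and Serpine2 had no UMI. With 1 library per line the difference between lines was not tested, and in the Tbx18 line the interval of each of these folds holds 1.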

How the results depend on the processing

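With 1 library per group, every value here describes these libraries. The count of genes 2-fold higher (11) and lower (15) was 11 to 12 and 14 to 17 under TMM factors, DESeq2 size factors, a pseudocount of 5 CPM, the mean of per-cell CPM, the study's stated filters and removal of the highest Scrublet scores. At least 10 of the 11 and 14 of the 15 genes were shared in each of those. TMM moved the median log2 ratio of all genes from 0.01 to -0.08, and 16 of 26 lists lay above that median either way. The floor on levels mattered more: a minimum of 20 CPM gave 28 higher and 33 lower, and no minimum 379 and 400. With clusters 1 and 2 alone as the comparison, 38 genes were higher and 18 lower. In the Tbx18 naïve library 291 were higher and 145 lower, and 231 and 187 without the 3 cells of Tbx18-line cluster 5, an alternative chosen after the data were seen, as were the Spp1-high rule and the comparison within NG2-line clusters. Of the NG2-line genes, 8 of 11 and 10 of 15 were past 2-fold in the Tbx18 library. Without the 3 cells, 4 of 11 and 8 of 15 were.

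Against at least 1 of clusters 0, 1 and 2, some log2 ratios changed sign in the Tbx18 library, at 0.40 for Nrarp, -0.83 for Sh3gl3, -1.69 for Nts and 1.80 for Dgkb. Without the 3 cells they were 0.74 for Nrarp, -5.06 for Sh3gl3 (0 UMIs), -1.35 for Nts, 2.14 for Dgkb, -1.32 for Slc1a3, -1.18 for Igf2, 0.33 for Kcnk3 and 0.0086 for Chst3. The cause was not tested. Of 288 values for single genes and shares under other settings, 225 moved within their interval, 51 moved beyond it and 12 changed sign, all 12 in the Tbx18 library.

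With clusters 0, 1, 2 and 7 as denominator, cluster 7 was 10.0% of the NG2-line and 14.1% of the Tbx18-line cells. The share of NG2-line pericytes with at least 3 of the 6 markers, 1.66%, 0.451% and 0.281% in the naïve, physical and ischemic injury libraries, became 8.07%, 5.05% and 5.15% with at least 2 markers, 4.96%, 2.22% and 3.88% at 2000 UMIs per cell, and 8.28%, 3.45% and 5.41% by the Spp1-high rule. Among Spp1-high cells outside cluster 7, leaving out cluster 3, also chosen after the data were seen, took the higher genes that were higher from 9 to 4 of 10 and the lower genes that were lower from 15 to 14 of 15. By the marker and Spp1 shares, which leave out cluster 8 of the NG2-line clustering, the naïve library was highest under each, and the order of the injured libraries turned. Depth limits the sparse markers, whose shares rise with UMIs per cell. No paired analysis was possible because each line and condition had 1 library and no test was made.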

Other observations

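Below the level of 50 CPM, some genes of the lists stood far from the neighbours in NG2-line cluster 7, and they were picked after their values were seen. Myh11, smooth muscle myosin heavy chain, stood at 10.2 CPM against 38.7, 54.6 and 84.8 CPM in clusters 0, 1 and 2, from 9 UMIs in 9 cells. Ednrb, an endothelin receptor, stood at 6.81 CPM against 22.3, 32.2 and 20.7 CPM, from 6 UMIs in 6 cells. The eotaxin Ccl11 had 1 UMI, at 1.13 CPM, against 16.9, 7.27 and 5.86 CPM. On the higher side, the laminin chain Lama1, also a fibroblast marker, stood at 15.9 CPM against 0.806, 1.56 and 1.95 CPM, from 14 UMIs in 9 cells. Igfbp5, an IGF-binding protein, stood at 28.4 CPM against 2.42, 1.56 and 0.781 CPM, but its 25 UMIs came from only 2 of the 244 cells.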
